A study of Mus musculus with 4 samples.

Results

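The genes described here build and steer autophagy, and they were compared between whole mouse embryos that lacked Cop1 and control embryos at embryonic day 9.5. Members were taken by symbol with no cut on a measured value, although the list was chosen with earlier results of these data known. They comprise every gene whose symbol starts with Atg and a digit, the kinases Ulk1 to Ulk4, the Map1lc3 and Gabarap genes, Wipi1 and Wipi2, and Becn1, Pik3c3, Pik3r4, Rb1cc1, Uvrag, Ambra1, Nbr1, Tfeb, Tfe3 and Mitf. This gave 87 probe sets of 39 genes, among 45037 probe sets tested and 18193 genes. Optn, which the same list names, was not analysed here. The null group was 1 pool of RNA from 6 Cop1-null embryos. The control group was 1 pool from 6 embryos that were wild type or carried 1 null allele, although the array titles call it wild-type. Each pool was divided into 2 portions and each portion was put on its own array, so the comparison is of 2 pools and its p-values measure only the spread between portions of the same RNA. The labels give neither the way the Cop1 allele was made nor the strain or sex of the embryos.

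Autophagy wraps cytoplasm in a double membrane, the autophagosome, and delivers it to the lysosome for breakdown. The ULK1 kinase complex starts the process, a phosphatidylinositol 3-kinase built around Beclin 1 marks the membrane, WIPI proteins read that mark, and a conjugation system attaches ATG8 proteins of the LC3 and GABARAP subfamilies to the growing membrane. Transcription factors of the MiT family (TFEB, TFE3, MITF) switch on many of these genes together with lysosomal ones, and autophagy is known to respond to nutrient shortage, low oxygen and stress.

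All values are log2 expression from RMA, and each difference is the null pool minus the control pool. A probe set was called, and its gene said to have risen or fallen, where limma gave an adjusted p under 0.05 and the difference was at least 1.5-fold. Over all probe sets the median level was 6.03 in both control portions against 6.10 and 6.09 in the null ones. The array pairs of 1 pool correlated across probe sets at 0.998 each, and arrays of different pools at 0.980 to 0.982. The Cop1 probe set read 11.35 and 11.26 in the control portions against 9.67 and 9.77 in the null ones, so the arrays labelled null were the lower ones. Its position relative to the deletion is not stated in the labels, so it checks the labels only in part. Markers of embryonic tissue were present on every array, such as the embryonic globin gene Hbb-y (14.4 to 14.5), the heart gene Myl7 (11.1 to 11.2) and the neural tube gene Sox2 (11.1 to 11.3). Of 3 trophoblast markers measured, Tpbpa (3.4 to 3.6) lay below the lower quartiles of all probe sets, 4.40 to 4.47, while Plac1 read 6.7 to 6.9 and Ascl2, at 5.4 to 6.3, rose (0.64). Of 5 genes listed as decidual markers, Prl8a2 (3.6 on each array) and Pgr (3.9 to 4.3) lay below those quartiles. Des and Dcn read 7.7 to 8.1, and Hand2 fell (-0.72). Whether Des, Dcn and Hand2 read decidua or the embryo itself in these pools was not tested. The summed linear level of the 5 listed genes was 1448 to 1455 in the control portions against 1027 to 1069 in the null ones. Hand2, with a control mean of 9.82 on the log2 scale, gave the most to that sum. Prl8a2 and Pgr differed by 0.02 and 0.05 and were not called, so the lower sum was not shared by them. The summed level of the trophoblast markers was 171 to 188 in the control portions against 187 to 198 in the null ones. The part of these tissues in the differences was not tested. In RNA of whole embryos, fewer cells of a type and less RNA per cell cannot be told apart.

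Of the 39 autophagy genes, each represented by its brightest probe set, 6 were called (15.4%), against 11.6% of all genes. Wipi1 and Gabarapl1 rose, where 3.58% of all genes rose. Ulk1, Rb1cc1, Atg101 and Atg5 fell, where 8.06% of all genes fell. The share of members called was therefore near that of all genes, and what follows describes single members. The median difference over the 39 genes was 0.04, against -0.02 over all genes. The 2 control arrays lay apart from the 2 null arrays for 36 of the 39 genes, which compares with 68.2% of all genes. Another scaling of the arrays, centring on the poly-A spike controls, shifted the all-gene median to -0.26 and gave 1 rise and 7 falls among the members. Those spikes had median levels of 7.40 and 7.63 in the control portions against 7.67 and 7.83 in the null ones. The median of control portion 2 lay closer to that of null portion 1 than to that of control portion 1. Results with this scaling therefore carry spread of the spikes between portions of the same RNA.

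**Figure D1:**
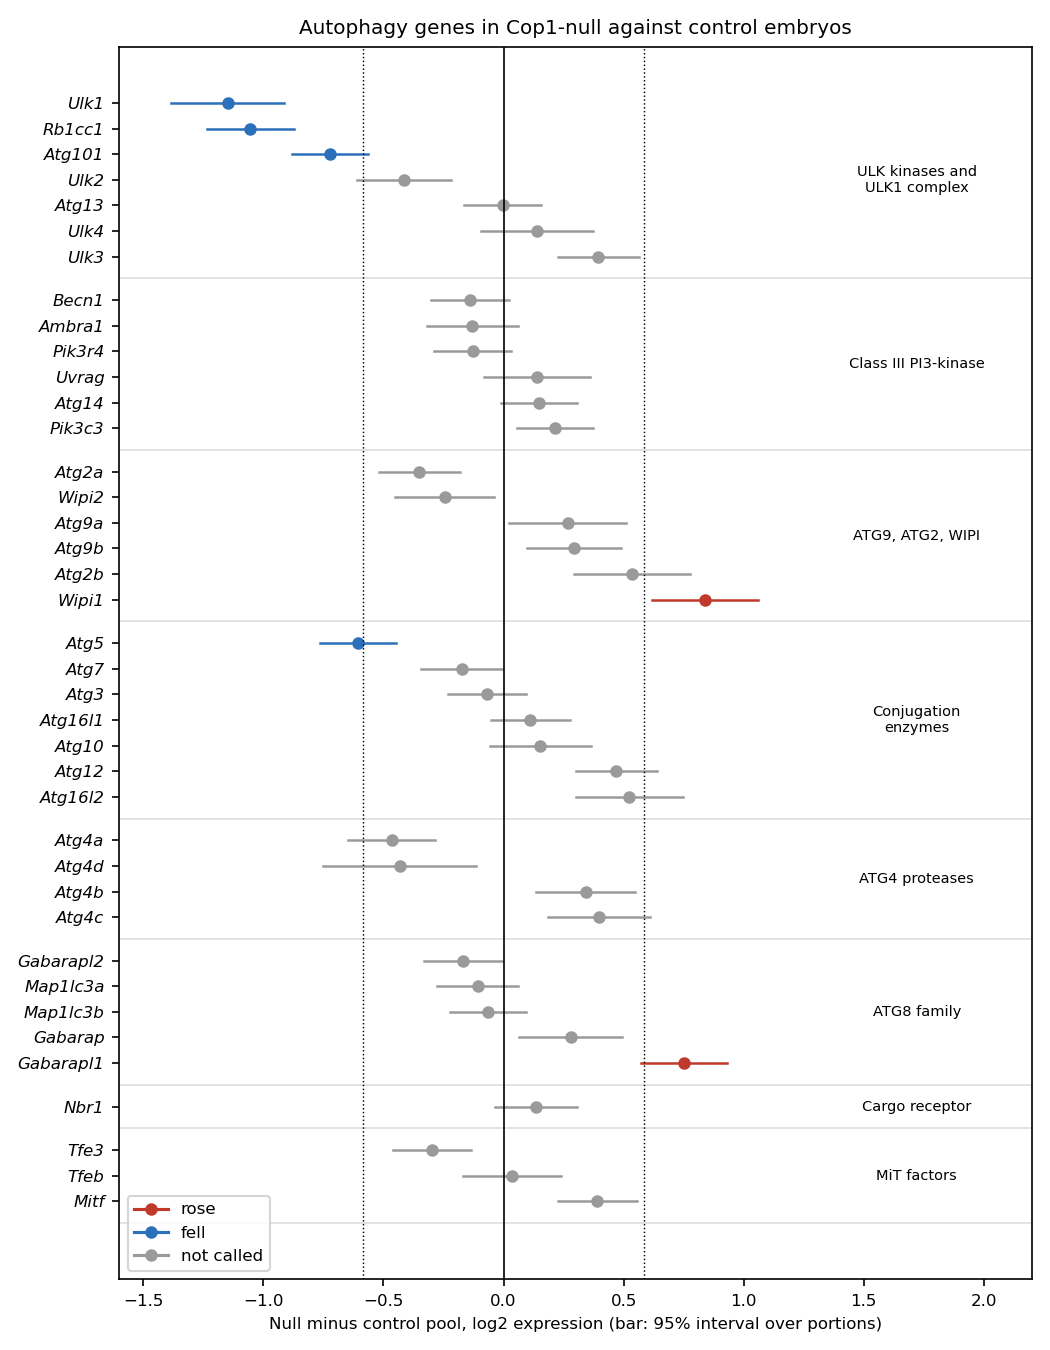
Difference between the Cop1-null and the control pool (log2 expression, x axis) for each of the 39 autophagy genes, represented by its brightest probe set and grouped by role. Bars are 95% intervals from limma over the 4 arrays, and dotted lines mark 1.5-fold. Of the 4 falls 3 lie in the ULK group of 7 genes, where 8.06% of all genes fell, and most other groups stay between the dotted lines.

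The promoters of 5 members are shown. They are the genes that rose, Ulk1 and Atg5 of the genes that fell, and Atg3, the member with the motif TCACGTGA. Each line gives the 150 bases before the gene start, read 5′ to 3′ on the gene's strand, from RefSeq on GRCm38.p6. Capitals mark matches to CACGTG (an E-box, the kind of site that MiT factors bind) and its longer form TCACGTGA (the core of the CLEAR element of lysosomal genes). The windows are chr6:129533042-129533191 (+) for Gabarapl1, chr11:109611390-109611539 (-) for Wipi1, chr5:110810082-110810231 (-) for Ulk1, chr10:44268189-44268338 (+) for Atg5 and chr16:45158679-45158828 (+) for Atg3.
Gabarapl1: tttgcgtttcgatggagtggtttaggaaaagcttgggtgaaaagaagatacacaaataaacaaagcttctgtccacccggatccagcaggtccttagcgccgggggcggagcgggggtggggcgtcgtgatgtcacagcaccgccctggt
Wipi1: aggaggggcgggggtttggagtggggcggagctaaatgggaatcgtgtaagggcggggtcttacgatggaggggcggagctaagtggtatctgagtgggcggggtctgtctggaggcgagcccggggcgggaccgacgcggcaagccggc
Ulk1: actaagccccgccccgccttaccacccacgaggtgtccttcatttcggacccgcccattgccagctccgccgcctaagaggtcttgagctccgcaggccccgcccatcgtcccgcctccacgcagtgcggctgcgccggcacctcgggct
Atg5: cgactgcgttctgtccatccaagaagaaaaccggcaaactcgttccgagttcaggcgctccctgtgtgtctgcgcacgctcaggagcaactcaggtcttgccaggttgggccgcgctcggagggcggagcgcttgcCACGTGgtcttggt
Atg3: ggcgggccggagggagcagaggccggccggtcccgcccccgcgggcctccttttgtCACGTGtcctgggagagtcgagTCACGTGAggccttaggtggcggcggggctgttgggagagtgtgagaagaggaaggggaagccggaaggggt

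RefSeq promoters were found for 33 of the 39 genes, 41 promoters in all, and 4 motifs were searched on both strands in the 250 bases before each start. CACGTG was in 3 of the 41 (7.32%), those of Atg3, Atg5 and Atg7, and in 6.02% of all 32851 promoters. TCACGTGA, which contains CACGTG, was in that of Atg3 alone among members and in 0.785% of all promoters. ACGTG, the core of hypoxia response elements, which is also part of both longer motifs, was in 13 of 41 member promoters (31.7%) and in 16.6% of all promoters. TGATGCAA, an element bound by ATF4, was in 0 of 41 and in 0.791% of all. Of the called genes, Rb1cc1 was among those with no promoter found and was not searched. Among the rest, Atg5 held CACGTG between 14 and 9 bases before its start and Atg101 held ACGTG between 172 and 168 bases before it. These letters were not in the windows of Gabarapl1, Wipi1 and Ulk1. A match is a description of the sequence and not evidence of binding.

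The ULK1 complex held 3 of the 4 falls, in a group of 7 genes, where 8.06% of all genes fell. The group also counts Ulk2, Ulk3 and Ulk4, and the fall of Rb1cc1 was seen in its brightest probe set only. Ulk1, the kinase that starts autophagosome formation, read 9.16 and 8.96 in the control portions against 7.94 and 7.89 in the null ones. Both null portions lay about a full log2 unit under the control portions, and the difference was -1.15 (SE 0.09, 2.22-fold lower, adjusted p = 0.00168). Its other probe set read 7.93 and 8.11 in the control portions against 7.41 and 7.30 in the null ones, and fell by 0.67 on the log2 scale. That second call was lost without control replicate 2 (-0.58, under the fold limit) and without null replicate 2 (-0.61, adjusted p = 0.051).

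Rb1cc1 encodes FIP200, the large scaffold that holds the ULK1 complex together. Its brightest probe set read 8.43 and 8.45 in the control portions against 7.33 and 7.44 in the null ones, a difference of -1.05 (SE 0.07, 2.08-fold, adjusted p = 0.00119). The groups were far apart in this probe set only. The other 2 probe sets of Rb1cc1 gave 0.13 and 0.19, neither called and both above the 95% interval of the brightest (-1.24 to -0.87). The mean of all 3 was -0.25, under the fold limit. Atg101, which stabilises ATG13 in the complex, has 1 probe set. It read 8.65 in each control portion against 7.94 and 7.91 in the null ones, and the gene fell by 0.72 on the log2 scale (SE 0.06, 1.65-fold, adjusted p = 0.00196).

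The remaining kinases were not called, and Atg13 was not called by its brightest probe set. Ulk2, the closest relative of Ulk1, read 8.86 and 8.93 in the control portions against 8.54 and 8.42 in the null ones, a difference of -0.41 (95% interval -0.61 to -0.22) with an adjusted p of 0.0149 but under the fold limit. A pair of its other 3 probe sets also gave -0.41 and -0.30, and its dimmest gave 0.13. Ulk3, a related kinase, was 0.39 higher, and Ulk4, a pseudokinase that is not an established autophagy factor, differed by 0.14. Atg13 is the bridge between the kinase and its scaffold. In its brightest probe set it read 7.51 and 7.50 in the control portions against 7.52 and 7.48 in the null ones. Its groups overlapped there, and its next probe set gave -0.10 (adjusted p = 0.286). The dimmest probe set of Atg13 was called (0.88).

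The Beclin 1 complex makes the lipid phosphatidylinositol 3-phosphate. By their brightest probe sets, 0 of the 6 members that belong to it or regulate it were called, with differences from -0.14 to 0.22. A dimmer probe set of Ambra1 was called (1.27), and averaging the 3 probe sets of that gene gave 0.50. Pik3c3, the catalytic subunit, was at the upper end (8.32 and 8.34 against 8.54 and 8.55, adjusted p = 0.0529). Becn1 itself was at the lower end, at 10.17 and 10.22 against 10.06 and 10.05. Pik3r4, the regulatory kinase-like subunit, differed by -0.13, Atg14, which directs the complex to sites of autophagosome formation, by 0.15, and Uvrag, which takes the place of ATG14 in the endosomal form, by 0.14. For the brightest probe sets of these 6 genes, the 95% intervals lay inside 1.5-fold in both directions.

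Wipi1 and Wipi2 encode readers of that lipid, and of their brightest probe sets that of Wipi1 was called. Wipi1 read 8.05 and 8.14 in the control portions against 9.02 and 8.85 in the null ones, the largest rise among the 39 genes (0.84, SE 0.08, 1.79-fold, adjusted p = 0.00295). Its 6 probe sets were all higher in the null pool, by 0.17 to 1.22, and 3 of them were called. The widest of these, a dimmer probe set, went from 5.97 and 6.01 to 7.01 and 7.41. Wipi2, which recruits the ATG16L1 conjugation machinery, gave -0.24 in its brightest probe set and 0.00 in the next (not called), and 0.59 in its dimmest, which was called (5.74 and 5.53 against 6.07 and 6.38, adjusted p = 0.0283). That call on Wipi2 was lost on leaving out control replicate 1 (difference 0.70, adjusted p = 0.0722). The same held for leaving out control replicate 2 (difference 0.49, adjusted p = 0.139) and null replicate 2 (difference 0.44, adjusted p = 0.105).

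The lipid transporters ATG2 and the ATG9 proteins, which supply membrane, were not called. Atg2a was lower (7.21 and 7.22 against 6.90 and 6.82, -0.35) and Atg2b higher (7.20 and 7.01 against 7.59 and 7.70, 0.53, adjusted p = 0.0132), both under the fold limit. Without control replicate 1 the Atg2b difference reached 0.63 and passed both limits (adjusted p = 0.0349). Atg9a, the form found in most tissues, and its relative Atg9b were higher by 0.27 and 0.29.

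In the conjugation system, Atg5 was the 1 called gene of 7. ATG5 is joined to ATG12 and with ATG16L1 forms the unit that places ATG8 proteins on membranes. Atg5 read 9.04 and 9.07 in the control portions against 8.46 and 8.44 in the null ones (-0.61, SE 0.06, 1.52-fold, adjusted p = 0.00294). The portions of each pool nearly coincided, and the remaining 2 probe sets fell further, by 0.74 and 0.75 on the log2 scale, so all 3 were called. The brightest one missed the fold limit (-0.55, adjusted p = 0.00342) when the arrays were quantile-normalized again. Atg12, the partner of ATG5, was higher in all 3 of its probe sets, by 0.47, 0.27 and 0.24, each under the fold limit. Atg16l1 differed by 0.11 and its relative Atg16l2 by 0.52 (adjusted p = 0.0109), a value that passed the fold limit without control replicate 2 (0.60) and without null replicate 1 (0.59). The E1-like enzyme Atg7 (-0.17) and the E2-like enzymes Atg3 (-0.07) and Atg10 (0.15) were not called. Atg3, whose promoter carries both CACGTG sites shown above, read 10.12 and 10.16 in the control portions against 10.06 and 10.08 in the null ones.

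ATG4 proteases trim ATG8 proteins before conjugation and release them afterwards, and the 4 genes divided in direction with 0 called by their brightest probe sets. Atg4a (7.42 and 7.52 against 6.99 and 7.03, -0.47, adjusted p = 0.00849) and Atg4d (-0.43, adjusted p = 0.0535) were lower. Atg4b, the main LC3 protease, was higher at 0.34 and Atg4c at 0.40. The other 2 probe sets of Atg4b were lower, at -0.21 and -0.15, and the mean of all 3 was -0.0035, so its direction depended on the probe set. Atg4d passed both limits without control replicate 1 (-0.59, adjusted p = 0.04).

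Among the 5 ATG8 genes, Gabarapl1 rose and the others were not called by their brightest probe sets. Gabarapl1 read 9.81 and 9.71 in the control portions against 10.52 and 10.50 in the null ones (0.75, SE 0.07, 1.68-fold, adjusted p = 0.00233). The second probe set of Gabarapl1 gave the same size of rise (8.81 and 8.85 against 9.59 and 9.57, 0.75, SE 0.06). With poly-A spike centring both values were 0.52 and lay under the fold limit. Gabarap went from 11.62 and 11.77 to 12.02 and 11.93 (0.28, adjusted p = 0.059). Gabarapl2 gave -0.17, Map1lc3a -0.11 and Map1lc3b, the LC3 form most often used as an autophagosome marker, -0.07. By the brightest probe sets, the 95% interval of the Gabarapl1 rise, 0.57 to 0.93, lay above those of the other 4 genes. Of these, that of Gabarap reached highest (0.07 to 0.49). Among the other Map1lc3b probe sets, the dimmest had an interval of 0.92 to 1.58, and the rest differed by -0.29 and -0.37. The differences between these genes were not tested.

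Nbr1, a receptor that carries ubiquitin-tagged cargo into autophagosomes, was level in both of its probe sets (0.13 and 0.07, not called). Of the MiT factors, Mitf was higher (6.61 and 6.59 against 7.02 and 6.96, 0.39, adjusted p = 0.0108) and Tfe3 lower (8.30 and 8.33 against 8.04 and 7.99, -0.30, adjusted p = 0.0226), both under the fold limit. Tfeb read 6.69 and 6.55 in the control portions against 6.69 and 6.62 in the null ones, with overlapping arrays.

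**Figure D2:**
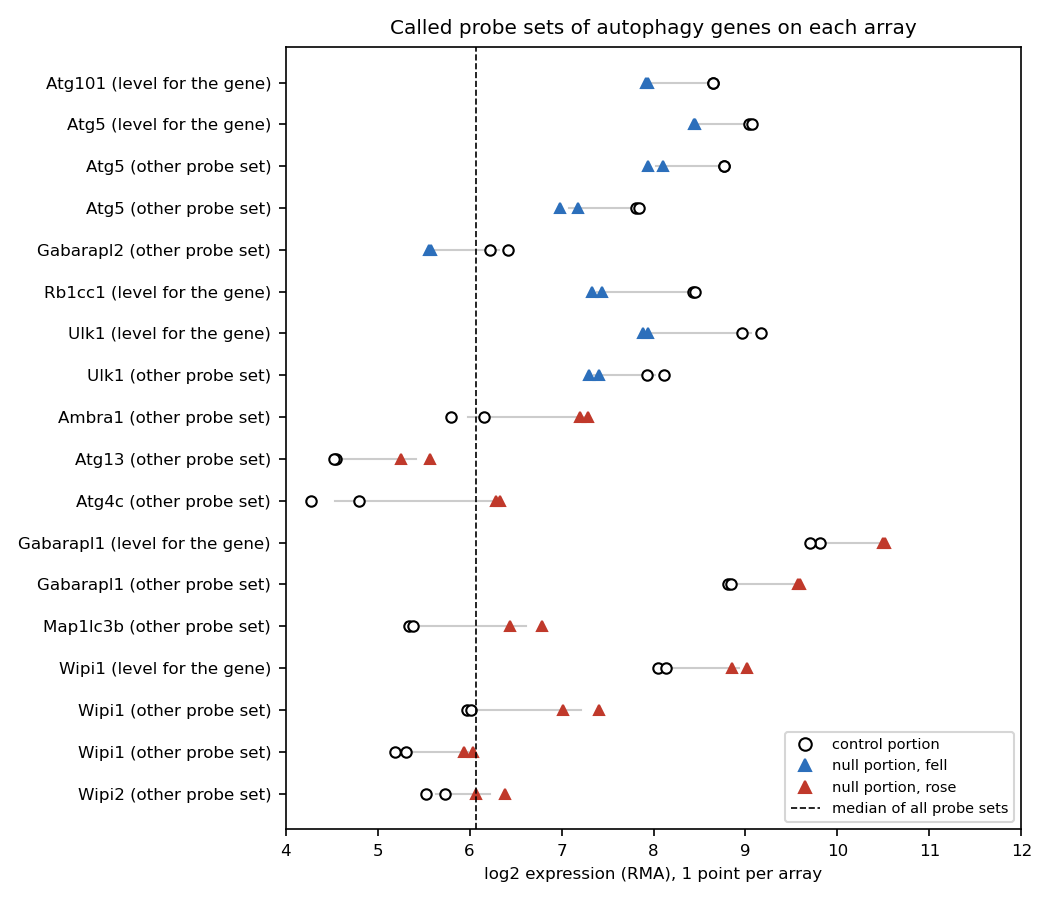
Log2 expression (x axis) on each of the 4 arrays for the 18 called autophagy probe sets, with open circles for the control portions and triangles for the null portions, blue where the probe set fell and red where it rose. The dashed line is the median of all probe sets, and in each row the 2 circles and the 2 triangles do not overlap.

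At the level of probe sets 18 of 87 were called, 10 risen and 8 fallen, against 13.7% of all probe sets, of which 6.76% rose and 6.96% fell. No autophagy probe set differed by 1.5-fold between portions of the same pool, the widest gap being 0.52. Poly-A spike centring changed the split to 6 risen and 14 fallen. The called probe sets belonged to 12 genes, and in 6 of these only a probe set other than the brightest was called. For Atg4c it went from 4.28 and 4.80 to 6.29 and 6.34, the largest difference of any member (1.78, SE 0.18, adjusted p = 0.00288). The dimmest Map1lc3b probe set went from 5.34 and 5.39 to 6.79 and 6.44 (1.25, SE 0.13), while the other 3 gave -0.07, -0.29 and -0.37. For Ambra1, a regulator of Beclin 1, the middle one of 3 rose from 5.80 and 6.16 to 7.29 and 7.20 (1.27, SE 0.13), and the brightest gave -0.13.

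The remaining cases were Atg13, Gabarapl2 and Wipi2. The dimmest Atg13 probe set rose from 4.55 and 4.52 to 5.26 and 5.57 (0.88, SE 0.12), a call lost without control replicate 2 (0.86, adjusted p = 0.0506). The dim Gabarapl2 probe set fell from 6.22 and 6.42 to 5.56 and 5.58 (-0.75, SE 0.09). Averaging all probe sets of a gene turned the sign of Ambra1 to 0.50, of Atg13 to 0.26 and of Map1lc3b to 0.13, and brought Atg4c to 1.09. The sources used here do not say which parts of these transcripts the probe sets read.

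**Figure D3:**
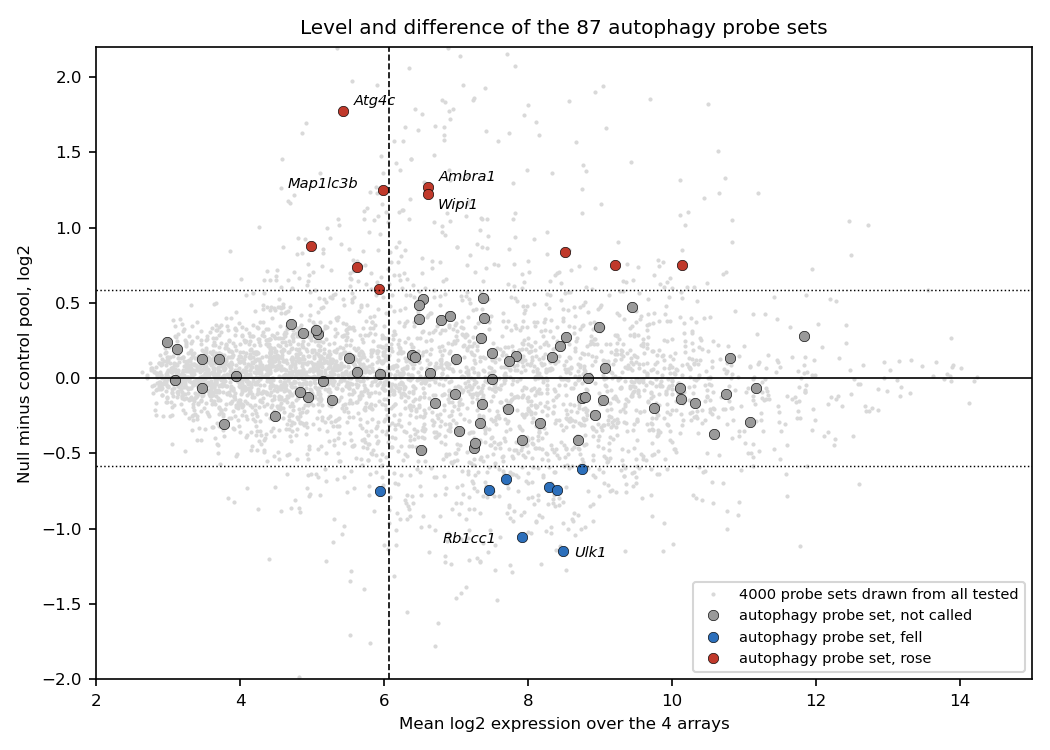
Difference between the pools (log2, y axis) against mean log2 expression over the 4 arrays (x axis) for the 87 autophagy probe sets, over 4000 grey probe sets drawn from all tested, with points beyond the y axis not drawn. The dashed line is the median level of 6.07, left of which 5 autophagy probe sets rose and 1 fell, and the dotted lines mark 1.5-fold.

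Rises and falls among the autophagy probe sets were also counted by level, as a description with no test. Of 61 probe sets with a mean at or above the median of all probe sets (6.07), 5 rose (8.2%) and 7 fell (11.5%), close to the 8.93% and 11.2% of all probe sets in that range. Of the 26 below it, 5 rose (19.2%) and 1 fell (3.85%), where 4.59% of all probe sets rose and 2.75% fell. The 5 dim rises were those of Atg4c, Map1lc3b, Atg13, Wipi1 and Wipi2. The median difference was -0.07 for the brighter member probe sets and 0.12 for the dimmer ones, against -0.05 and 0.03 over all probe sets of the same range.

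Other genes of the pathway were taken from 5 lists, to be read against the 3.58% of all genes that rose and the 8.06% that fell. Among cargo receptors outside the member list, 3 of 14 rose and 0 fell, with a median of 0.09. With poly-A spike centring 1 rose and 1 fell, and with the probe sets of a gene averaged 1 rose. Bnip3, a mitophagy receptor of the outer mitochondrial membrane, went from 11.20 and 11.22 to 13.02 and 12.98 (1.79, SE 0.06, 3.46-fold, adjusted p = 0.000558). Ccpg1, a receptor for endoplasmic reticulum, rose by 0.67 (SE 0.07), and Retreg1, another such receptor, by 0.60 (SE 0.09). The other Ccpg1 probe set gave -0.06, and the call was lost with both averaged (0.30) and with poly-A spike centring (0.44, adjusted p = 0.0594). The Retreg1 call was lost on leaving out control replicate 1 (0.49, under the fold limit), null replicate 1 (difference 0.55, adjusted p = 0.065) or null replicate 2 (difference 0.64, adjusted p = 0.0531). Among 16 other genes of initiation and membrane growth 1 fell, Nrbf2, a subunit of the Beclin 1 complex (-0.62, SE 0.06), and the median was -0.04. That call was lost with quantile normalization applied once more (-0.56, under the fold limit), which left 0 falls in the list.

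Genes of fusion with the lysosome held 3 falls and 1 rise among 13, with a median of -0.11, and the same shares of all genes apply. Averaging the probe sets of a gene left 1 fall and 0 rises, and poly-A spike centring gave 4 falls and 0 rises. Ykt6, a SNARE of autophagosomes, read 10.95 and 10.87 in the control portions against 9.88 and 9.83 in the null ones (-1.06, SE 0.07, 2.08-fold, adjusted p = 0.00109), and its other probe set fell by 0.75 on the log2 scale. Plekhm1, an adaptor that tethers lysosomes, fell by 1.63 on the log2 scale (7.83 and 7.74 against 5.88 and 6.44), while its other, dimmer probe set rose by 1.03. Stx17, the autophagosomal syntaxin, fell by 0.61 on the log2 scale in its brightest probe set, and the remaining 3 gave -0.21, 0.23 and 0.40 without a call. With quantile normalization applied once more the brightest also lay under the fold limit (-0.57). Vps41, a subunit of the HOPS tethering complex, rose by 0.77 (SE 0.07), and its other 2 probe sets, at 0.18 and 0.19, were not called.

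Lysosomal genes rose in 5 of 24 cases (20.8%, against 3.58% of all genes) and fell in 0 (against 8.06%). Gusb had the lowest value of the list (-0.56, adjusted p = 0.00359) and lay just under the fold limit. Of the 24 differences 20 were positive, as were 8345 of those of all 18193 genes. The list was chosen with earlier results of these data known, so these shares are a description and not a test. The median was 0.36, against -0.02 over all genes. Neu1, the lysosomal sialidase, went from 6.97 and 6.84 to 7.69 and 7.85 (0.87, SE 0.09, 1.82-fold, adjusted p = 0.00316). Ctsl, the protease cathepsin L, went from 11.56 and 11.61 to 12.31 and 12.31 (0.73, SE 0.06), and its second probe set also rose (0.72). Hexa, a subunit of beta-hexosaminidase, rose by 0.72 (SE 0.06) and Tpp1, a tripeptidyl peptidase, by 0.61 (SE 0.06). Ctsa, which protects the sialidase, rose by 0.61 (SE 0.06). The other probe sets of Neu1, Ctsa and Tpp1, dimmer in each case, lay between -0.05 and 0.10 and were not called. The Tpp1 call was lost without control replicate 1 (0.57, under the fold limit). The count depended on scaling, being 3 rises and 1 fall with each array centred on its median and 1 rise and 1 fall with poly-A spike centring, and the mean of all probe sets of a gene also gave 3 rises and 1 fall.

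Markers of macrophages and visceral endoderm, cell types rich in lysosomes, held more falls than rises, while the called lysosomal genes all rose. Of 4 macrophage markers 2 fell, Cd68 (-0.74) and Lyz2 (-0.69), Csf1r differed by -0.37 under the fold limit, and Adgre1 had overlapping arrays (-0.01). They had a summed linear level of 494 to 537 in the control portions against 374 to 391 in the null ones. Of the 8 markers of visceral endoderm and yolk sac, Afp (-1.01), Ttr (-1.53) and Alb (-2.09) fell, Cubn rose (1.45), and Apoa1, Apob, Rbp4 and Amn were not called (-0.11 to 0.31). The median of the 8 was -0.06. Their summed linear level, to which Afp gave the most (11.82 and 11.86 against 10.84 and 10.81 on the log2 scale), was 4856 to 5047 in the control portions against 2600 to 2605 in the null ones. The part of either cell type in the lysosomal and autophagy differences was not tested, nor whether Afp, Ttr and Alb read yolk sac alone.

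Regulators of the MiT factors, a list that also counts the related factor Tfec, held 2 rises and 0 falls among 9. The median was 0.05, and 3.58% of all genes rose. Tfec had the lowest value of the list (-0.69, adjusted p = 0.0818) and was not called. Array medians or averaged probe sets left 1 rise, and poly-A spike centring gave 0 rises and 1 fall. A replicate block or a trended robust prior kept the 2 rises and gave 1 fall. Leaving out null replicate 2 also gave 1 fall. Fnip1 rose by 0.82 (8.32 and 8.49 against 9.27 and 9.17, adjusted p = 0.00344) in its brightest probe set, and its other 2 rose by 0.79 and 0.87. With poly-A spike centring the brightest gave 0.58, just under the fold limit. FNIP1 works with folliculin, the product of Flcn, in the lysosomal control of TFEB and TFE3. Flcn rose by 0.60 (8.18 and 8.19 against 8.81 and 8.76, SE 0.06), lost its call without null replicate 1 (0.57, under the fold limit), and lay under the fold limit when each array was centred on its median (0.53).

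**Figure D4:**
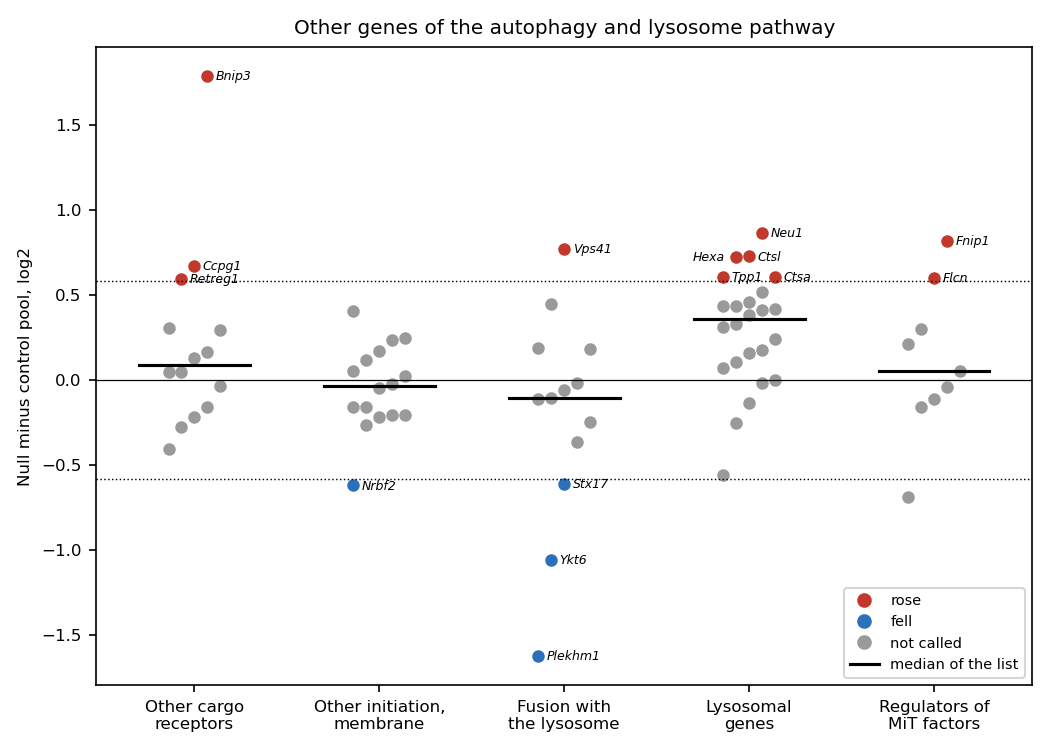
Difference between the pools (log2, y axis) for genes of 5 further lists of the autophagy and lysosome pathway (x axis), 1 point per gene by its brightest probe set, with the list median as a bar. Red points rose, blue points fell, dotted lines mark 1.5-fold, and the lysosomal list has the highest median (0.36).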

How the data were processed

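The authors deposited log2 expression values for 4 Affymetrix arrays (2 per RNA pool), and the submitters' processing notes name RMA and affy for them. The sources used here give no versions and no probe mapping. RMA equalises the arrays, so changes of total RNA per embryo are not visible. The table held 45101 probe sets, of which 64 Affymetrix controls were kept out of the tests. Names came from the platform's annotation table of 2016, using probe sets with 1 gene symbol. Gene numbers of all 39 member genes matched RefSeq, and 0 symbols changed.

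limma 3.58.1 in R 4.3.3 (lmFit and eBayes, genotype as the only term) was run on all 45037 remaining probe sets with 2 residual degrees of freedom, and p-values were adjusted by Benjamini-Hochberg over all of them. The fit was tested on simulated data. The probe set of highest mean over the arrays stood for its gene. The text names every member, Cop1, and the called genes of each further list. Up to 4 called genes per list were planned by size of difference, and Ctsa was named beyond that number. The uncalled Tfec and Gusb were named as the lowest values of their lists. Markers and second probe sets were named after their values were seen. The members and lists were chosen with earlier results of these data known. Precision is limited by the number of arrays.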

Additional observations from a re-analysis of the deposited data

How the results depend on the processing

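Counts given first are those as reported. The counts of called autophagy genes (6, with 2 risen and 4 fallen) and probe sets (18, with 10 risen and 8 fallen) stayed within 1.5 times with quantile normalization applied once more, centring on array medians, the dimmest 40% of probe sets left out, and a trended robust prior. Without each array in turn, genes called ranged from 6 to 8, probe sets called from 16 to 19, and the median difference of the genes from -0.0064 to 0.093. Poly-A spike centring gave 1 gene risen and 7 fallen, 6 probe sets risen and 14 fallen, and a median of -0.20. The adjusted p alone gave 18 genes (10 risen, 8 fallen) and 38 probe sets (22 risen, 16 fallen). A 2-fold limit gave 2 genes (0 risen, 2 fallen) and 6 probe sets (4 risen, 2 fallen). The probe set of lowest p gave 12 genes, 7 of them risen, and a median of 0.14. The median was -0.027 with array medians centred, 0.017 without dim probe sets and 0.10 with probe sets averaged, so its sign depended on the setting.

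Labels number the portions 1 and 2, but deviations of same-numbered portions correlated at 0.06, so the numbers are not taken as pairs. With the number as a replicate block, 6 genes and 17 probe sets were called, and the dim Wipi2 probe set (0.59, adjusted p = 0.0686) was the 1 lost call.

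No called value of a member changed sign under a setting that kept its probe set. Uncalled values that did were, with quantile normalization once more, Atg13 (0.047) and Tfeb (-0.00069), with array medians, Tfeb (-0.027), and with poly-A spikes, Atg10 (-0.081), Atg14 (-0.086), Atg16l1 (-0.12), Nbr1 (-0.099), Pik3c3 (-0.018), Tfeb (-0.20), Ulk4 (-0.094) and Uvrag (-0.094). Without each array in turn, Atg13 ranged from -0.021 to 0.015 and Tfeb from -0.034 to 0.11. Averaged probe sets gave Ambra1 0.50, Atg13 0.26, Atg4b -0.0035, Map1lc3b 0.13 and Wipi2 0.12. The probe set of lowest p gave Ambra1 1.27, Atg13 0.88, Map1lc3b 1.25 and Wipi2 0.59. The cause of these changes was not tested, except that the last 2 settings read other probe sets. Portions of 1 pool carry no spread between embryos, which limits every p-value here.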
